A study of Homo sapiens with 9 samples.

Results

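The NF-κB signalling machinery was followed as a set of 39 genes, chosen by name for their place in the pathway: the NF-κB subunits, their inhibitors, the kinases that act on these inhibitors, and the adaptors and ubiquitin ligases between the receptors and the kinases. All 39 were found among the 58735 genes of the deposited table, and all 39 were among the 21636 genes tested. The cells were HCT116, an established human colorectal carcinoma line, in 3 groups with 3 libraries each. WT cells carry the label A20-WT, A20-KO cells were targeted at A20 with a guide RNA in the LentiCRISPR v2 lentiviral vector, and A20-RE cells (labelled A20-OE) are A20-KO cells with A20 expressed again. No treatment, ligand, or time point is given in the labels, so the groups were compared as they are labelled. The Methods describe puromycin selection after lentiviral infection, and do not say whether the WT cells went through it. If they did not, infection and selection cannot be told apart from the A20 label in comparisons with WT. Whether NF-κB signalling was at rest in these cells was not measured. The Methods describe an A20 overexpression vector with a CMV promoter and a Flag tag, but do not say whether the A20-KO line came from a single clone, or whether the libraries of a group came from separate cultures. The p-values therefore measure the spread between these libraries.

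NF-κB is a family of dimeric transcription factors that inhibitor proteins, the IκBs, hold in the cytoplasm. Receptors such as TNFR1 recruit adaptors and ubiquitin ligases, ubiquitin chains activate the IKK kinases, and IKK marks IκB for degradation, after which NF-κB enters the nucleus. NF-κB induces several of its own parts, among them IκBα and A20. A20 is a ubiquitin-editing enzyme that acts on the ubiquitin chains of this pathway, and it is known in the intestinal epithelium as a brake on inflammatory signalling.

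Values are FPKM (fragments for each kilobase of a gene, adjusted for library depth, here with the median-of-ratios scaling that the deposited values already carried). Recovered reads were between 23406222 and 24963691 per library, and mitochondrial genes took 7.52% to 10.11% of them in WT, 9.18% to 11.86% in the A20-KO-labelled libraries, and 11.97% to 13.95% in A20-RE. Of 8 colorectal epithelial markers, 6 were present (EPCAM, KRT8, KRT18, KRT19, CDH1, and CDX2), while VIL1 was between 0 and 0.0556 FPKM and CDX1 between 0 and 0.0458 FPKM. The summed epithelial markers ranged from 1092 to 1472 FPKM in WT, from 1696 to 2241 FPKM in the A20-KO-labelled libraries, and from 1687 to 2231 FPKM in A20-RE. The 6 leukocyte markers summed to no more than 0.569 FPKM in any library, and PTPRC was at most 0.022 FPKM. The 6 fibroblast and endothelial markers summed to between 4.69 and 5.94 FPKM in WT and between 11.4 and 15.3 FPKM in the other libraries, nearly all of it COL1A1. In A20-KO against WT, the markers past both thresholds used below were COL1A1 (log2 fold change 1.31, adjusted p = 2.6e-04) and KRT19 (1.02, adjusted p = 0.0062, limma), and the part of these shifts in the results was not tested. In bulk RNA, fewer cells of a type and less RNA per cell cannot be told apart.

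A further shift between libraries followed the GC content of the transcripts. The correlation (Spearman) of a gene's deviation with its GC content, across 21624 genes within 1 library, was -0.45, -0.12, and 0.08 in the WT libraries, 0.28, 0.14, and 0.37 in the A20-KO-labelled ones, and 0.02, -0.08, and 0.09 in A20-RE. Genes within a library are not independent replicates, so these values are a description. Transcripts rich in G and C were thus lowest in WT replicate 1 and highest in A20-KO replicate 3. Fold changes are given below as fitted on the deposited values, and the value after a GC correction in 50 bins, an alternative chosen after seeing the data, is given with the counts of members and beside the members whose call or value it changed.

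The targeted gene was examined first. TNFAIP3 (chromosome 6, 137867188 to 137883312), which encodes A20, was at 0.869, 0.8, and 0.736 FPKM in WT, at 1.93, 2.16, and 1.04 FPKM in the A20-KO-labelled libraries, and at 58.7, 66.5, and 56.5 FPKM in A20-RE. The A20-KO-labelled libraries did not have less TNFAIP3 mRNA than WT; all 3 of them had more (log2 fold change 0.95, SE 0.23, adjusted p = 0.018 by limma). The RNA level therefore does not check this label, and each direction below is drawn between libraries as they are labelled. TNFAIP3 is itself an NF-κB target.

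Promoters of the members that NF-κB induces are shown because several of the largest differences lay among these genes. In the 250 bases before the annotated start (RefSeq, GRCh38.p14), the κB consensus was searched on both strands. It was found in 3498 of all 35116 promoter windows and in 10.5% of the 38 windows of the other members. Of the 10 members that NF-κB is known to induce, 8 were in the table, and their windows held a match in 57.1% of 14 cases. The matched genes were NFKBIA, NFKB1, NFKB2, NFKBIZ, REL, and BIRC3, while BCL3 and TRAF1 held no match. The windows below lie at chr14:35404750-35404999 (NFKBIA, minus strand), chr4:102501109-102501328 (NFKB1, plus strand), chr11:102317234-102317449 (BIRC3, plus strand), and chr3:101827740-101827989 (NFKBIZ, plus strand). Each is written along its gene's strand up to the first base of the annotated gene, with the matches in capitals.
NFKBIA: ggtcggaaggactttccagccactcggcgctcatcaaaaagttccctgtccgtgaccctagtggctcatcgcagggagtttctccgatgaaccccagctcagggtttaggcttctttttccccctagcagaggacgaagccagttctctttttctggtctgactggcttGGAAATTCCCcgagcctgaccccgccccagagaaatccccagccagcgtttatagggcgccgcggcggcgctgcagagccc
NFKB1: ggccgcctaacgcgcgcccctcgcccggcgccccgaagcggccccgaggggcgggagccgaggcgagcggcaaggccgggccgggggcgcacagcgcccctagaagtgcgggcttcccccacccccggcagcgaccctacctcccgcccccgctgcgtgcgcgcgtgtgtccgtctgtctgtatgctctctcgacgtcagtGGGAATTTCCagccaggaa
BIRC3: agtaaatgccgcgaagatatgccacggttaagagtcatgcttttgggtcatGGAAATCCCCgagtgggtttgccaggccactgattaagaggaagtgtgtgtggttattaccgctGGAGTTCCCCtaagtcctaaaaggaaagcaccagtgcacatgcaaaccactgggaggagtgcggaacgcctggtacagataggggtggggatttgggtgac
NFKBIZ: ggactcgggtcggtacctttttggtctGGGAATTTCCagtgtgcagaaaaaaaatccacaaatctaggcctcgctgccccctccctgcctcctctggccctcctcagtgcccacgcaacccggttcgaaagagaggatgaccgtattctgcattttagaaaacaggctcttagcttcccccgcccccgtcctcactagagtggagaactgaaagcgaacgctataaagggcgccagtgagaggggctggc
The match began 81 bases before the RefSeq start in NFKBIA, 49 bases before it in the NFKB1 window, 199 and 135 bases before it in BIRC3, and 223 bases before it in NFKBIZ. Among the other members, NFKBIB, TRAF3, TAB2, and IRAK1 each held a match. RELB, NFKBIE, IKBKB, TRADD, and SHARPIN were not in the table used here. A match is a stretch of letters and not a measured binding site.

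In the WT cells, the members spanned a wide range of levels. Over the 9 libraries 3 members had a mean under 1 FPKM, 23 lay between 1 and 10 FPKM, and 13 were at 10 FPKM or more. The highest in WT was IRAK1, a kinase of the interleukin-1 and Toll-like receptor pathway (48.4 ± 10.3 FPKM, SD, n = 3), and the lowest was TRAF1 (0.327 ± 0.0365 FPKM, SD, n = 3). Next to IRAK1 came NFKB2 (32.2 ± 4.75 FPKM, SD, n = 3) and NFKBIB (28.4 ± 6.23 FPKM, SD, n = 3). NFKB2 was above NFKBIB in each WT library, and the difference was not tested. The member with the fewest reads was TRAF1, with 32 to 70 reads per library.

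Between the A20-KO-labelled libraries and WT, 10 of the 39 members passed an adjusted p of 0.05 (limma, Benjamini-Hochberg over all 21636 genes). NFKB2, RELB, NFKBIA, BCL3, TRADD, and RBCK1 were higher, and NFKB1, CHUK, MYD88, and MALT1 were lower. Among all genes tested 11.3% were higher and 11% lower, against 15.4% and 10.3% of the members, so the members' share was near the background. BCL3 and NFKBIA also passed an absolute log2 fold change of 1, which 6.99% of all genes did. The 6 higher members had a GC content between 53.1% and 67.4% (median 64.8%) and the 4 lower ones between 36.3% and 51.9% (median 45%). After the GC correction this did not hold: 22 of the 39 members passed, 10 higher and 12 lower, against 26.1% of all genes, and neither BCL3 nor NFKBIA kept an absolute log2 fold change above 1 (0.73 and 0.92). The 10 members above kept their direction and still passed. Of the others, BIRC3 (0.91), NFKBIZ (0.46), TAB3 (0.37), and TAB2 (0.34) then passed as higher. IRAK1 (-0.88), IKBKG (-0.66), IKBKE (-0.59), NFKBIB (-0.53), NFKBIE (-0.48), TRAF2 (-0.45), TAB1 (-0.36), and MAP3K14 (-0.29) then passed as lower. Below, a member is said to pass or not on the deposited values unless the correction is named.

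Between A20-RE and the A20-KO-labelled libraries, the adjusted p was passed by 4 members, NFKB1, NFKBIB, TNFRSF1A, and TRAF2, all lower in A20-RE. Among all genes 4.54% were lower and 4.43% higher, against 10.3% of the members lower. Limma found 0 members higher in this comparison, with 5 at an unadjusted p under 0.05, while limma-voom on the recovered reads gave 3 higher and 6 lower. The shares of all genes at the unadjusted p and under limma-voom are not given here. These counts are therefore not set against a background. Limma and limma-voom both found 0 members past the adjusted p and the fold threshold together, which 2.39% of all genes passed, and at an unadjusted p under 0.05 the count was 0 as well. This count of members was the least steady: leaving out 1 library at a time gave 0 to 12. It was 0 without A20-KO replicate 1 or A20-RE replicate 1 and 12 without WT replicate 1. The GC correction gave 14 (5 higher and 9 lower), where 15.7% of all genes passed. TRAF6 (0.62), RELA (0.51), MAP3K14 (0.35), NFKB2 (0.31), and BIRC2 (0.26) then passed as higher. NFKBIE (-0.51), TBK1 (-0.44), MALT1 (-0.42), MAP3K7 (-0.36), and RELB (-0.33) joined the lower members.

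Between A20-RE and WT, 19 of 39 members passed, 8 higher and 11 lower. Among all genes 15.7% were higher and 15.4% lower, against 20.5% and 28.2% of the members. After the GC correction TAB1 (-0.49) and BIRC2 (0.28) also passed the adjusted p, and UBE2N (-0.29) no longer did. NFKBIA, BCL3, and BIRC3 rose and NFKB1 fell past both thresholds, as 11.9% of all genes did. After the GC correction BCL3 (0.83) did not, and NFKBIB (-1.11), TRAF2 (-1.09), and IKBKE (-1.05) did. The share of all genes that passed after the correction is not given for this comparison. The corrected calls are therefore not set against a background. The median log2 fold change of the members was -0.03, -0.16, and -0.08 in the 3 comparisons, in the order given here, and that of all genes tested was -0.01, 0.01, and 0.03. The comparisons share libraries and are not independent of each other.

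**Figure D1:**
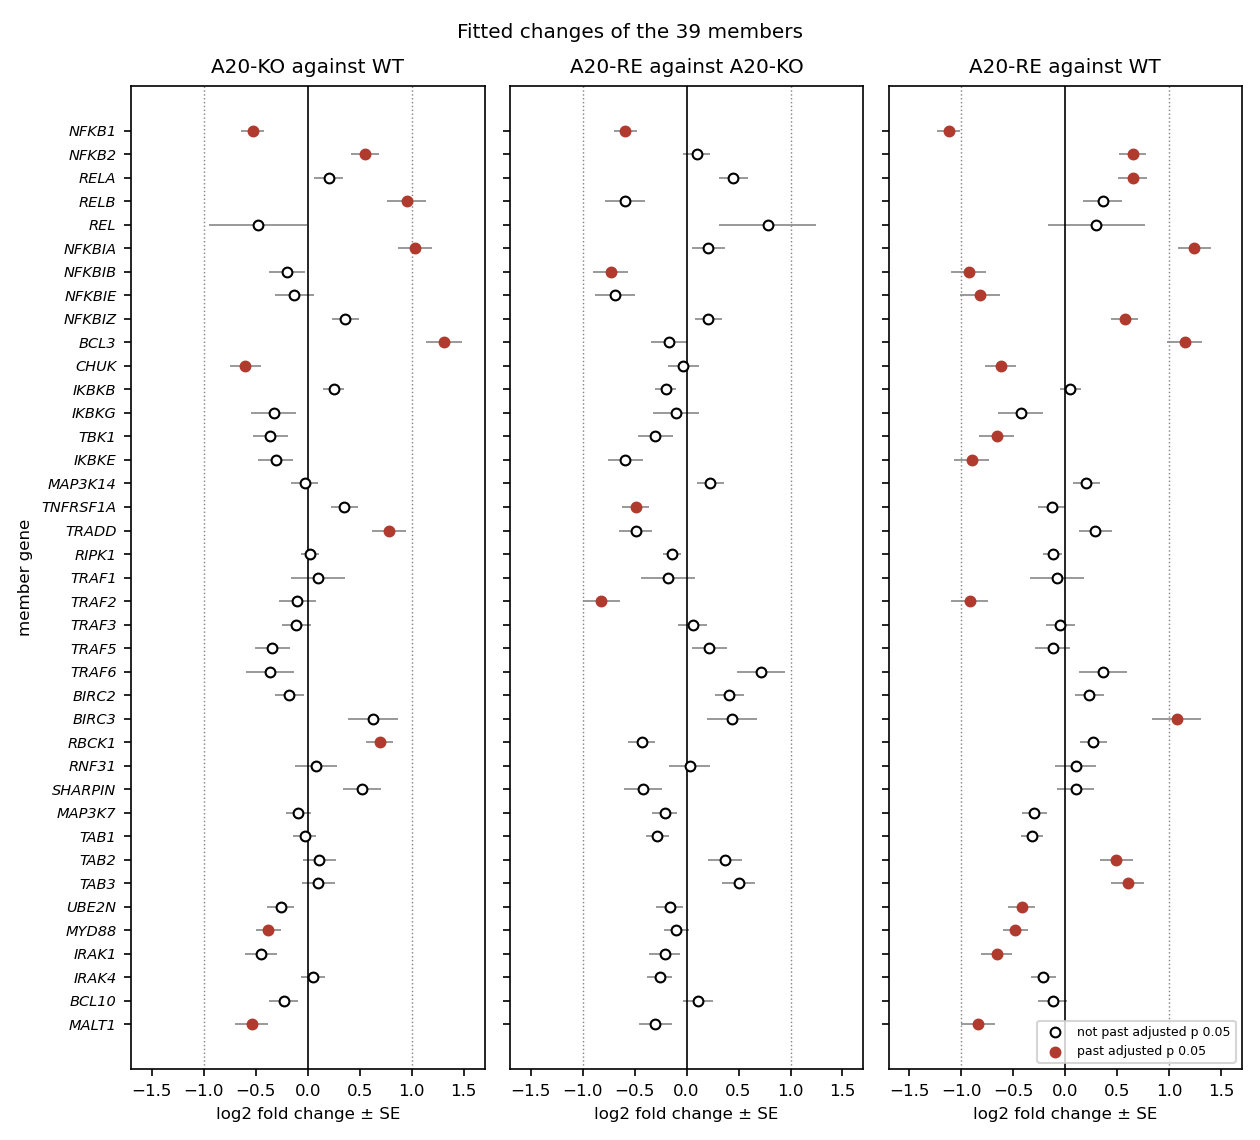
Log2 fold change of each of the 39 members on the x axis, with its standard error, in the 3 comparisons (limma on log2(FPKM + 0.1)). Filled points passed an adjusted p of 0.05 and dotted lines mark a log2 fold change of 1 in either direction; 10, 4, and 19 members are filled from left to right.

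**Figure D2:**
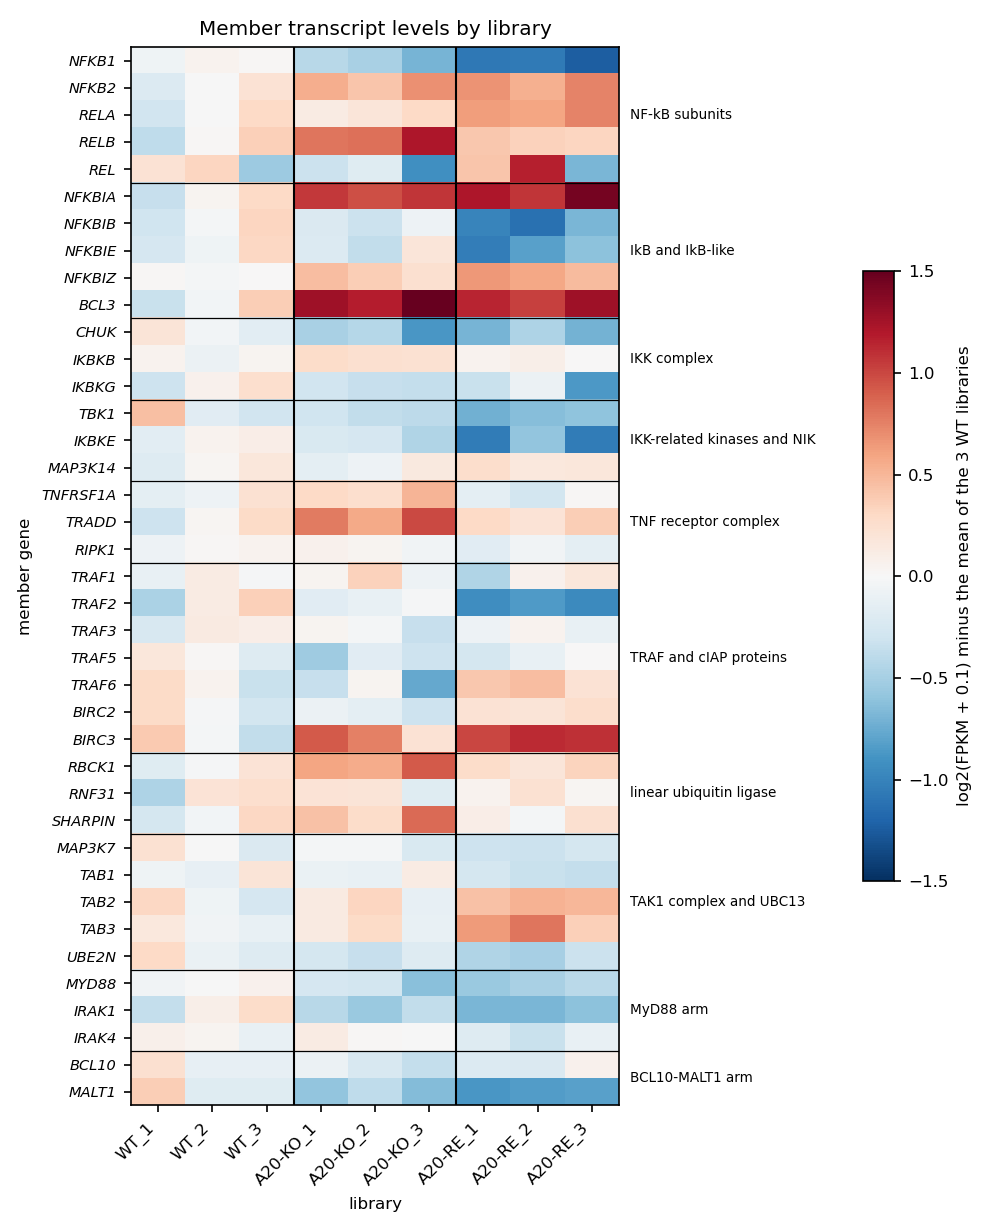
Each member (rows, by role) in each of the 9 libraries (columns), as log2(FPKM + 0.1) minus the mean of the 3 WT libraries; red is above and blue below WT. The rows of NFKBIA and BCL3 are red and that of NFKB1 is blue in all 6 libraries labelled A20-KO or A20-RE.

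The subunits moved in opposite directions. NFKB1, which encodes p105 and its product p50, was at 7.15, 7.74, and 7.56 FPKM in WT, at 5.6, 5.33, and 4.59 FPKM in the A20-KO-labelled libraries, and at 3.51, 3.52, and 3.13 FPKM in A20-RE. The 3 groups did not overlap, and each step was downward. NFKB1 was the only member that passed in all 3 comparisons: its log2 fold change was -0.53 in A20-KO against WT (SE 0.11, adjusted p = 0.0085), -0.59 in A20-RE against A20-KO (SE 0.11, adjusted p = 0.014), and -1.12 in A20-RE against WT (SE 0.11, adjusted p = 1.1e-04, limma). The step from A20-KO to A20-RE was lost without A20-KO replicate 1, A20-RE replicate 1, or A20-RE replicate 3, with an adjusted p of up to 0.064.

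NFKB2, which encodes p100 and its product p52 of the alternative pathway, was at 27.7, 31.9, and 37.2 FPKM in WT, at 46.8, 42.7, and 51.6 FPKM in the A20-KO-labelled libraries, and at 51.1, 46.3, and 53.7 FPKM in A20-RE. Both groups lay above all WT libraries and overlapped each other. The log2 fold change was 0.55 in A20-KO against WT (SE 0.13, adjusted p = 0.014) and 0.65 in A20-RE against WT (SE 0.13, adjusted p = 0.0044, limma); the first was 0.22 after the GC correction. RELB, the partner of p52, was at 3, 3.98, and 5.07 FPKM in WT, at 6.94, 7.06, and 9.27 FPKM in the A20-KO-labelled libraries, and at 5.23, 5.03, and 4.92 FPKM in A20-RE. RELB rose in the A20-KO-labelled libraries (log2 fold change 0.95, SE 0.19, adjusted p = 0.0071, limma, and 0.49 after the GC correction). In A20-RE it lay below every one of them, although the test of that step did not pass (-0.59, adjusted p = 0.082, limma). After the GC correction that step was smaller and passed (-0.33, adjusted p = 0.039, limma).

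RELA, which encodes the p65 subunit of the classical pathway, was at 14.6, 17.7, and 21.9 FPKM in WT, at 19.4, 20.2, and 22 FPKM in the A20-KO-labelled libraries, and at 27.6, 26.9, and 29.8 FPKM in A20-RE. It was higher in A20-RE than in WT (log2 fold change 0.65, SE 0.14, adjusted p = 0.0069, limma), and all 3 A20-RE libraries lay above the other 6. REL, the remaining subunit, was low and scattered, between 0.147 and 0.955 FPKM with 45 to 312 reads, and passed in no comparison. An annotated gene on the same strand shares 43.3% of the exon bases of REL, so reads may be split between them.

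**Figure D3:**
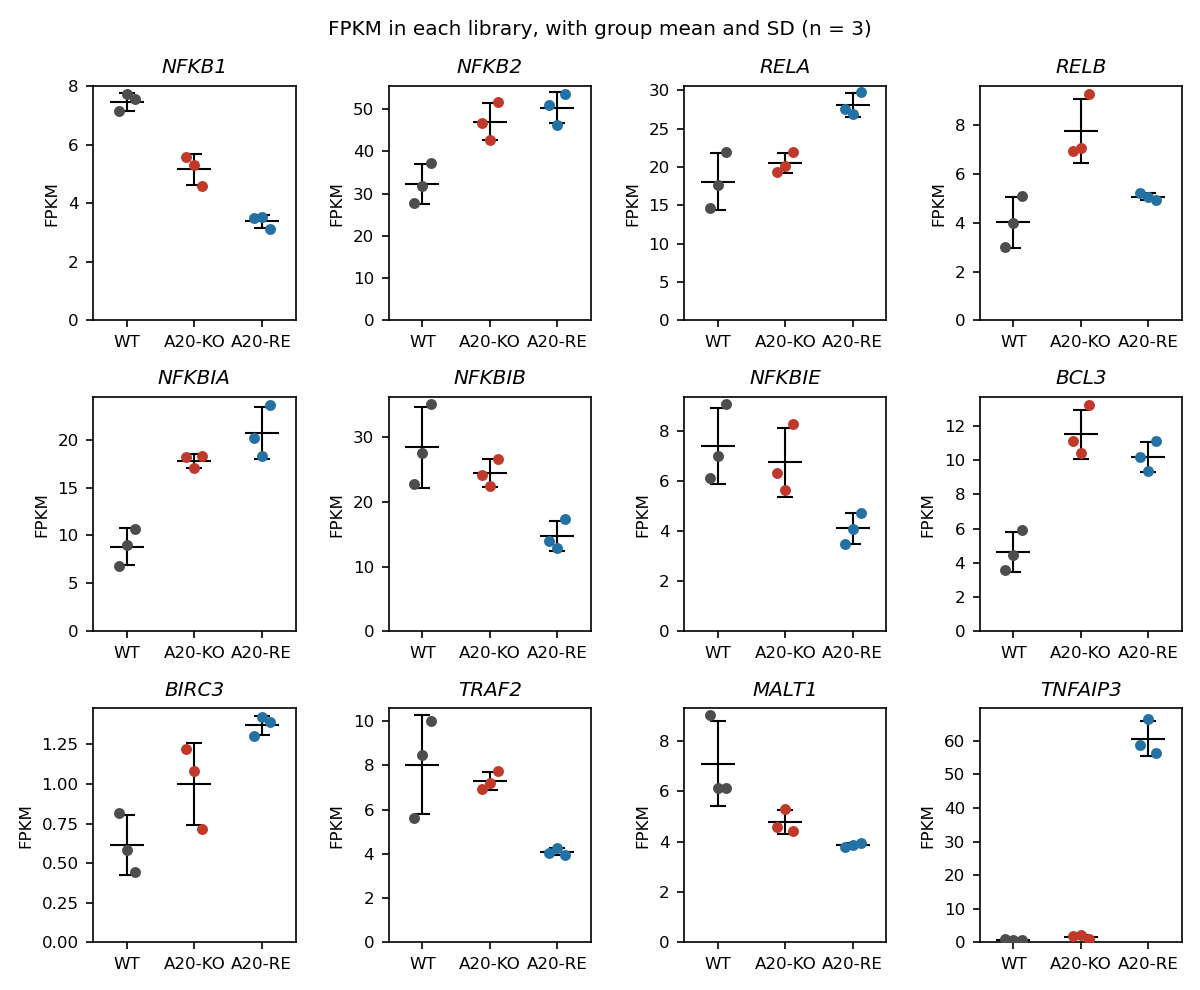
FPKM (y axis, from 0) of 11 members and of TNFAIP3 in each library, with the group mean and SD (n = 3) as a bar. NFKB1 steps down across WT, A20-KO, and A20-RE, while RELB is highest in the A20-KO-labelled libraries. NFKBIA is above WT in both other groups, and its difference between A20-KO and A20-RE did not pass (log2 fold change 0.21, adjusted p = 0.45, limma).

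The IκB inhibitors also moved apart from each other. NFKBIA encodes IκBα, the inhibitor that NF-κB resynthesises after each round of activation, and was at 6.82, 8.97, and 10.7 FPKM in WT, at 18.2, 17, and 18.3 FPKM in the A20-KO-labelled libraries, and at 20.2, 18.3, and 23.6 FPKM in A20-RE. Both groups lay above all WT libraries. The log2 fold change was 1.03 in A20-KO against WT (SE 0.16, adjusted p = 0.0026) and 1.24 in A20-RE against WT (SE 0.16, adjusted p = 5.5e-04, limma), and both passed the adjusted p in all 20 other settings tried, with a highest value of 0.014. Between A20-KO and A20-RE the difference was 0.21 (adjusted p = 0.45).

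NFKBIB, which encodes IκBβ, was at 22.7, 27.5, and 35 FPKM in WT, at 24.1, 22.4, and 26.6 FPKM in the A20-KO-labelled libraries, and at 14, 12.8, and 17.3 FPKM in A20-RE. The A20-RE libraries lay below all others. NFKBIB was lower in A20-RE than in the A20-KO-labelled libraries (log2 fold change -0.73, SE 0.17, adjusted p = 0.033) and than in WT (-0.93, SE 0.17, adjusted p = 0.0031, limma). The first of these was lost in 8 of 20 other settings, among them the omission of any library labelled A20-KO (adjusted p up to 0.12). NFKBIE, which encodes IκBε, was at 6.12, 6.99, and 9.07 FPKM in WT, at 6.3, 5.63, and 8.29 FPKM in the A20-KO-labelled libraries, and at 3.5, 4.09, and 4.74 FPKM in A20-RE. It was lower in A20-RE than in WT (-0.82, SE 0.19, adjusted p = 0.01, limma). The difference between A20-RE and the A20-KO-labelled libraries did not pass (-0.69, adjusted p = 0.057, limma), but did after the GC correction (-0.51, adjusted p = 0.028).

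The makeup of the IκB transcripts differed between all 3 groups without overlap. These shares were chosen after the values were seen, and being ratios within a library they do not depend on its scaling. NFKBIA made up 19.2%, 20.6%, and 19.5% of the summed FPKM of NFKBIA, NFKBIB, and NFKBIE in WT, 37.4%, 37.7%, and 34.3% in the A20-KO-labelled libraries, and 53.6%, 51.9%, and 51.7% in A20-RE. The group means were 19.8% ± 0.77, 36.5% ± 1.86, and 52.4% ± 1.06 (SD, n = 3), and the exact two-sided permutation p was 0.1 for each pair of groups, the smallest that 3 libraries against 3 can give. NFKBIB fell from 63.6% ± 0.334 to 49.8% ± 0.225 and 37.2% ± 0.727 (SD, n = 3). The sum of all 3 inhibitors overlapped between the groups, at 44.6 ± 9.64 FPKM in WT, 48.9 ± 4.12 FPKM in the A20-KO-labelled libraries, and 39.5 ± 5.47 FPKM in A20-RE (SD, n = 3). After the GC correction the NFKBIA share was 18.5%, 38.4%, and 52.7% in the same order.

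**Figure D4:**
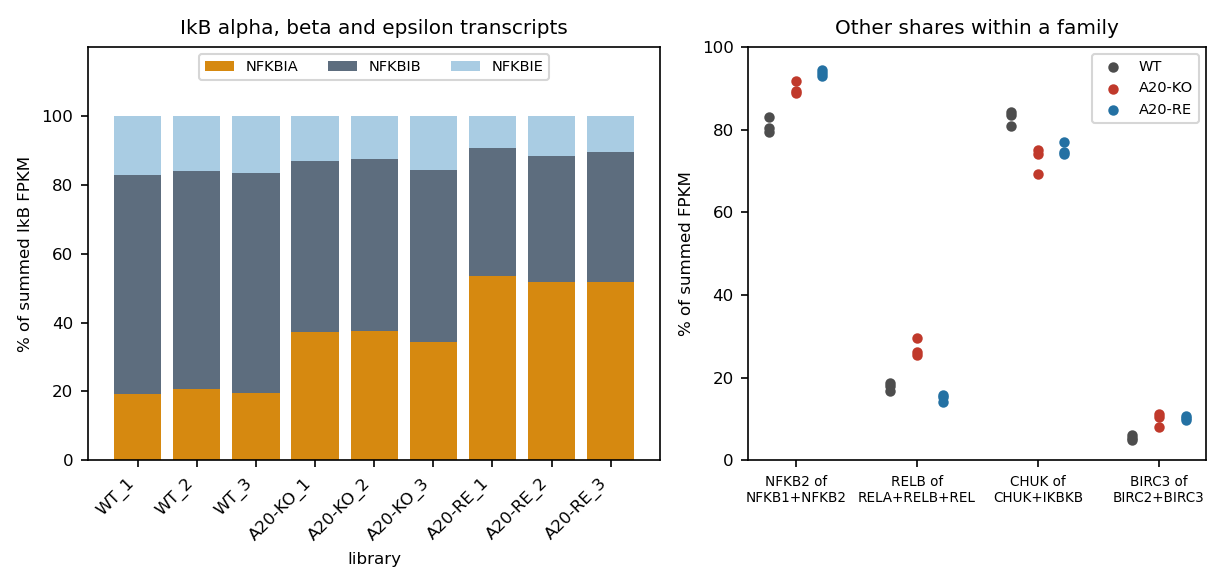
Left, the percent of the summed IκB FPKM taken by NFKBIA, NFKBIB, and NFKBIE in each library (stacked bars from 0); right, the percent of 4 other families taken by 1 member, 1 point per library. The NFKBIA part of the bars grows from 19.8% in WT to 52.4% in A20-RE on average, and the libraries of a group lie close together.

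BCL3, an atypical IκB that binds p50 and p52 in the nucleus, was at 3.6, 4.44, and 5.9 FPKM in WT, at 11.1, 10.4, and 13.2 FPKM in the A20-KO-labelled libraries, and at 10.2, 9.36, and 11.1 FPKM in A20-RE. It had the largest rise of the members in A20-KO against WT on the deposited values (log2 fold change 1.31, SE 0.17, adjusted p = 0.0012), but not after the GC correction, which gave 0.73 for BCL3, 0.92 for NFKBIA, and 0.91 for BIRC3. BCL3 was also higher in A20-RE than in WT (1.15, SE 0.17, adjusted p = 0.0012, limma; 0.83 after the correction). BCL3 has the highest GC content of the members (67.4%). NFKBIZ, which encodes the nuclear IκBζ, was at 1.17, 1.13, and 1.16 FPKM in WT, at 1.63, 1.52, and 1.38 FPKM in the A20-KO-labelled libraries, and at 1.86, 1.78, and 1.64 FPKM in A20-RE. All 6 libraries without the WT label lay above WT, and the test passed for A20-RE against WT (0.57, SE 0.13, adjusted p = 0.009, limma) and not for A20-KO against WT (0.36, adjusted p = 0.077), although the latter passed after the GC correction (0.46, adjusted p = 0.016).

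Within 2 other pairs of related subunits the shares also differed. NFKB2 made up 81.0% ± 1.88 of the summed NFKB1 and NFKB2 FPKM in WT, 90.0% ± 1.59 in the A20-KO-labelled libraries, and 93.7% ± 0.788 in A20-RE (SD, n = 3). RELB made up 17.8% ± 1.01 of the RELA, RELB, and REL FPKM in WT, 27.1% ± 2.16 in the A20-KO-labelled libraries, and 15.0% ± 0.831 in A20-RE (SD, n = 3). In neither case did the groups overlap, so that RELB took its largest part of the family in the A20-KO-labelled libraries and its smallest in A20-RE (exact permutation p = 0.1 for each pair of groups, the smallest possible). The RELB share was 19.3%, 24.9%, and 15.4% after the GC correction.

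Of the IKK complex, which phosphorylates IκB, only the gene of IKKα passed. CHUK (IKKα) was at 15.8, 13.4, and 12.4 FPKM in WT, at 9.81, 10.2, and 7.47 FPKM in the A20-KO-labelled libraries, and at 8.45, 10, and 8.38 FPKM in A20-RE. It was lower than in WT in both groups (log2 fold change -0.60, SE 0.15, adjusted p = 0.019 for A20-KO; -0.62, SE 0.15, adjusted p = 0.011 for A20-RE, limma). The first was lost without WT replicate 1 or A20-KO replicate 3 (adjusted p up to 0.051) and was -0.34 after the GC correction. IKBKB (IKKβ) was between 2.66 and 3.46 FPKM, and all 3 libraries labelled A20-KO lay above WT without passing (0.25, adjusted p = 0.1). CHUK thus took 82.9% ± 1.76 of the summed CHUK and IKBKB FPKM in WT, 72.8% ± 3.16 in the A20-KO-labelled libraries, and 75.2% ± 1.49 in A20-RE (SD, n = 3), with no overlap between WT and the other groups. IKBKG, the scaffold NEMO, was between 1.2 and 2.71 FPKM and passed in no comparison; it has a near-identical pseudogene copy, so its reads are uncertain.

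The IKK-related kinases TBK1 and IKBKE (IKKε), which act on both NF-κB and interferon signalling, were lower in A20-RE than in WT. TBK1 was at 14.1, 9.11, and 8.4 FPKM in WT, at 8.32, 7.9, and 7.76 FPKM in the A20-KO-labelled libraries, and at 6.2, 6.56, and 6.7 FPKM in A20-RE (log2 fold change -0.66, SE 0.17, adjusted p = 0.019 for A20-RE against WT, limma). WT replicate 1 stood above the other WT libraries, and the call was lost without A20-RE replicate 1 or 2 (adjusted p up to 0.065). An opposite-strand gene covers 14.7% of the exon bases of TBK1, so its reads are uncertain while the strand setting is not given. IKBKE was at 1.93, 2.25, and 2.31 FPKM in WT, at 1.83, 1.79, and 1.55 FPKM in the A20-KO-labelled libraries, and at 0.993, 1.4, and 0.987 FPKM in A20-RE. The 3 groups did not overlap, and A20-RE against WT passed (-0.90, SE 0.17, adjusted p = 0.0035, limma). MAP3K14, which encodes the NIK kinase of the alternative pathway, was between 2.3 and 3.2 FPKM and passed in no comparison, and its antisense gene MAP3K14-AS1 covers 12.3% of its exon bases.

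At the TNF receptor, TNFRSF1A, which encodes TNFR1, was at 18.7, 19.5, and 24.1 FPKM in WT, at 25.4, 24.6, and 29.5 FPKM in the A20-KO-labelled libraries, and at 18.7, 17.1, and 20.9 FPKM in A20-RE. Every library labelled A20-KO lay above the other 6. The difference of TNFRSF1A from WT did not pass (log2 fold change 0.35, adjusted p = 0.078, limma), and was 0.17 after the GC correction. The fall to A20-RE passed narrowly (log2 fold change -0.49, adjusted p = 0.048, limma) and was lost when any of 7 libraries was left out, with an adjusted p of up to 0.17. TRADD, the adaptor that binds the death domain of TNFR1, was likewise highest in the A20-KO-labelled libraries, at 5.87, 7.48, and 8.94 FPKM in WT, 12.6, 10.9, and 14.6 FPKM in the A20-KO-labelled libraries, and 9.01, 8.46, and 9.46 FPKM in A20-RE. TRADD was higher in the A20-KO-labelled libraries than in WT (0.78, SE 0.16, adjusted p = 0.0094, limma; 0.32 after the GC correction) and its fall to A20-RE did not pass (-0.49, adjusted p = 0.097). RIPK1, the kinase that carries ubiquitin chains in this complex, was between 6.74 and 7.99 FPKM in all libraries and passed in no comparison.

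Among the TRAF and cIAP proteins, ubiquitin ligases and their scaffolds, TRAF2 and BIRC3 passed, in opposite directions. TRAF2 was at 5.61, 8.48, and 10 FPKM in WT, at 6.93, 7.21, and 7.73 FPKM in the A20-KO-labelled libraries, and at 4.04, 4.28, and 3.97 FPKM in A20-RE. The A20-RE libraries lay below all others (log2 fold change -0.82, SE 0.18, adjusted p = 0.031 against A20-KO; -0.92, SE 0.18, adjusted p = 0.0052 against WT, limma). The first was lost in 9 of 20 other settings, among them the omission of any library of either group (adjusted p up to 0.1). BIRC3, which encodes cIAP2 and is an NF-κB target, was at 0.814, 0.586, and 0.442 FPKM in WT, at 1.22, 1.08, and 0.713 FPKM in the A20-KO-labelled libraries, and at 1.3, 1.42, and 1.39 FPKM in A20-RE. It was higher in A20-RE than in WT (1.07, SE 0.24, adjusted p = 0.0094, limma), and the A20-KO-labelled libraries overlapped WT (0.63, adjusted p = 0.097), although this difference passed after the GC correction (0.91, adjusted p = 0.0046). The reads behind BIRC3 were 83 to 264 per library. BIRC2 (cIAP1) was between 8.19 and 12.5 FPKM, so BIRC3 was 5.54% ± 0.567 of the summed BIRC2 and BIRC3 FPKM in WT, 9.94% ± 1.72 in the A20-KO-labelled libraries, and 10.3% ± 0.463 in A20-RE (SD, n = 3). BIRC2, TRAF1, TRAF3, TRAF5, and TRAF6 passed in no comparison.

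The linear ubiquitin ligase builds the chains on which NEMO is activated. Its subunit gene RBCK1 (HOIL-1) was at 14.9, 16.7, and 19.6 FPKM in WT, at 25.6, 24.9, and 32.3 FPKM in the A20-KO-labelled libraries, and at 20.6, 19.3, and 21.4 FPKM in A20-RE. Each library labelled A20-KO lay above the other 6, and the rise over WT passed (log2 fold change 0.69, SE 0.13, adjusted p = 0.0065, limma; 0.29 after the GC correction). SHARPIN, a further subunit, was between 14 and 20.9 FPKM in WT, between 20.5 and 30.4 FPKM in the A20-KO-labelled libraries, and between 16.5 and 19.9 FPKM in A20-RE, so that A20-RE lay below the A20-KO-labelled libraries while both overlapped WT. SHARPIN passed in no comparison (0.52 for A20-KO against WT, adjusted p = 0.068, and -0.06 after the GC correction). RNF31, the catalytic subunit HOIP, was between 4.21 and 6.95 FPKM and passed in no comparison; an annotated gene on the same strand shares 34.8% of its exon bases.

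Of the TAK1 kinase complex, which activates IKK, only the adaptor genes TAB2 and TAB3 passed, in A20-RE against WT. TAB2, an adaptor that binds ubiquitin chains, was at 21.9, 16.8, and 14.8 FPKM in WT, at 19.3, 22.1, and 16.1 FPKM in the A20-KO-labelled libraries, and at 23.9, 25.3, and 24.8 FPKM in A20-RE. TAB3, its close relative, was at 2.53, 2.17, and 2.08 FPKM in WT, at 2.48, 2.76, and 2.08 FPKM in the A20-KO-labelled libraries, and at 3.55, 4.01, and 2.91 FPKM in A20-RE. Both were higher in A20-RE than in WT (TAB2, log2 fold change 0.49, adjusted p = 0.043; TAB3, 0.60, SE 0.16, adjusted p = 0.02, limma), with no overlap between these groups. The TAB2 call was lost in 9 of 20 other settings and the TAB3 call in 5 of 20, without WT replicate 2 or 3 and without A20-RE replicate 1 or 2 in both cases. UBE2N, the ubiquitin-conjugating enzyme UBC13, was at 25.3, 19.2, and 17.9 FPKM in WT, at 17.1, 16.2, and 18 FPKM in the A20-KO-labelled libraries, and at 15, 14.5, and 16.4 FPKM in A20-RE. It was lower in A20-RE than in WT (-0.42, adjusted p = 0.036, limma; -0.29 with adjusted p = 0.065 after the GC correction) and the call was lost in 9 of 20 other settings. The opposite-strand gene NUDT4 covers 39.5% of its exon bases, and without a stated strand setting their reads cannot be told apart. MAP3K7, the kinase TAK1 itself, and TAB1 were between 6.76 and 10 FPKM and between 5.83 and 8.54 FPKM, and passed in no comparison.

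The adaptors of the Toll-like and interleukin-1 receptors and of the BCL10-MALT1 complex were lower or did not pass. MYD88, the adaptor of these receptors, was at 6.26, 6.49, and 6.8 FPKM in WT, at 5.47, 5.35, and 4.19 FPKM in the A20-KO-labelled libraries, and at 4.4, 4.63, and 4.91 FPKM in A20-RE. All WT libraries lay above the other 6 (log2 fold change -0.38, adjusted p = 0.048 for A20-KO; -0.48, adjusted p = 0.014 for A20-RE, limma), but the first was lost in 14 of 20 other settings, among them each of the 9 that left out a library, and the second was lost without A20-RE replicate 1 (adjusted p = 0.061). IRAK1 was at 37.2, 50.5, and 57.4 FPKM in WT, at 35.6, 32.3, and 36.7 FPKM in the A20-KO-labelled libraries, and at 29.6, 29.5, and 31.1 FPKM in A20-RE. The groups did not overlap, and A20-RE against WT passed (-0.66, SE 0.15, adjusted p = 0.0083, limma; -0.91 after the GC correction), while A20-KO against WT passed after the GC correction (-0.88) and not before it (-0.45, adjusted p = 0.056). IRAK4, the kinase that acts on IRAK1, was between 1.73 and 2.4 FPKM and passed in no comparison.

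MALT1, a protease and scaffold that links antigen and other receptors to IKK, was at 9.04, 6.11, and 6.12 FPKM in WT, at 4.6, 5.31, and 4.42 FPKM in the A20-KO-labelled libraries, and at 3.77, 3.87, and 3.93 FPKM in A20-RE. WT replicate 1 stood above the other WT libraries, and still the 3 groups did not overlap. The log2 fold change was -0.54 in A20-KO against WT (SE 0.16, adjusted p = 0.038) and -0.84 in A20-RE against WT (SE 0.16, adjusted p = 0.0037, limma); the first was lost in 8 of 20 other settings (adjusted p up to 0.11) and was -0.33 after the GC correction. Opposite-strand genes cover 9.2% of the exon bases of MALT1. BCL10, its partner, was between 4.57 and 6.96 FPKM and passed in no comparison.

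**Figure D5:**
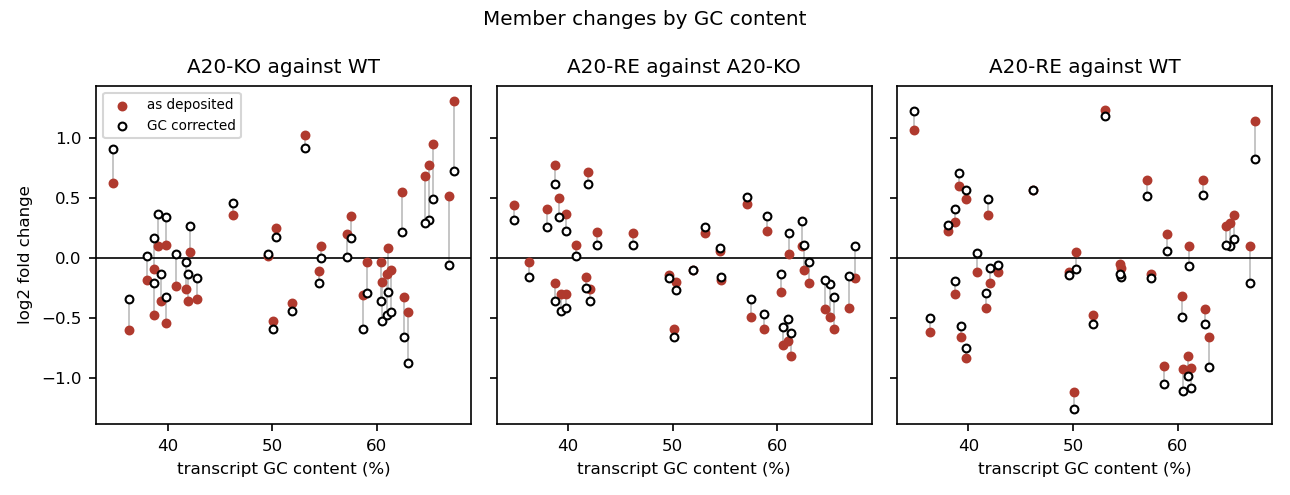
Log2 fold change of each member (y axis) against the GC content of its transcript in percent (x axis), as fitted on the deposited values (filled) and after the GC correction (open), joined by a line. In A20-KO against WT the members above 64% GC move down and those under 45% GC move up, while in A20-RE against WT the points move less.

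The 10 members that NF-κB is known to induce were NFKB1, NFKB2, RELB, REL, NFKBIA, NFKBIE, NFKBIZ, BCL3, TRAF1, and BIRC3. On the deposited values they held all of the members past both thresholds, but not after the GC correction. In A20-RE against WT, NFKBIB (-1.11), TRAF2 (-1.09), and IKBKE (-1.05), which are not on this list, then passed both. There NFKB1 (-1.26), BIRC3 (1.23), and NFKBIA (1.19) still passed both, and BCL3 (0.83) did not. In A20-KO against WT, neither NFKBIA (0.92) nor BCL3 (0.73) then did. In A20-KO against WT, 4 of the 10 were higher and 1 lower, with a median log2 fold change of 0.45, so that 50% passed against 22.3% of all genes. In A20-RE against WT, 5 were higher and 2 lower, with a median of 0.46, so that 70% passed against 31.1% of all genes. From A20-KO to A20-RE, 1 was lower (10%, against 8.97% of all genes) and the median was -0.04. These counts changed with the GC correction. In A20-KO against WT, BIRC3 (0.91) and NFKBIZ (0.46) then also passed as higher and NFKBIE (-0.48) as lower. In A20-RE against WT the same members of the list passed. From A20-KO to A20-RE, NFKB1 (-0.66), NFKBIE (-0.51), and RELB (-0.33) passed as lower and NFKB2 (0.31) as higher. The share of all genes that passed rose in this step too, as given above. The list was chosen with results of these data known, so these shares are a description. The other 29 members had medians of -0.10, -0.12, and -0.16 in these comparisons, in the same order. Members of the induced list thus lay on both sides: NFKBIA and BCL3 rose while NFKB1, itself an NF-κB target, fell.

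The wider pathway was described from lists of receptors, ligands, other adaptors and kinases, the ligase that degrades IκB, negative regulators, and target genes. Of 27 target genes tested, 7 were higher and 4 lower in A20-KO against WT (40.7%, against 22.3% of all genes). A20-RE against A20-KO had 3 and 3 (22.2%, against 8.97%), and A20-RE against WT had 5 and 6 (40.7%, against 31.1%). These lists too were chosen with results of these data known, so the shares are a description. ICAM1, an adhesion molecule, was at 1.71, 2.32, and 2.73 FPKM in WT, at 0.777, 0.692, and 0.66 FPKM in the A20-KO-labelled libraries, and at 0.646, 0.707, and 0.681 FPKM in A20-RE (log2 fold change -1.52, SE 0.19, adjusted p = 9.3e-04 for A20-KO against WT, limma). LCN2, a secreted protein that binds iron-carrying siderophores, was at 3.83, 3.16, and 5.73 FPKM in WT, at 0.283, 0.255, and 0.483 FPKM in the A20-KO-labelled libraries, and at 2.03, 1.44, and 1.55 FPKM in A20-RE. It fell in A20-KO against WT (-3.29, SE 0.27, adjusted p = 1.8e-04) and rose in A20-RE against A20-KO (2.03, SE 0.27, adjusted p = 0.0042, limma). The chemokines CXCL8 and CXCL1 were lower in A20-RE than in the A20-KO-labelled libraries (-1.32, adjusted p = 0.0051, and -1.18, adjusted p = 0.039, limma). CXCL8 rested on 24 to 88 reads per library and CXCL1 on 11 to 50. The listed chemokines CXCL2 (0.06, adjusted p = 0.94) and CXCL3 (0.48, adjusted p = 0.35, limma) did not pass in this comparison. In A20-RE against WT, SDC4, a cell-surface proteoglycan, was the target gene that rose past both thresholds (1.17, SE 0.11, adjusted p = 1.0e-04, limma). ICAM1 (-1.57, adjusted p = 3.5e-04), LCN2 (-1.26, adjusted p = 0.0068), and CXCL8 (-1.13, adjusted p = 0.0017, limma) fell past both thresholds there. Among the other adaptors and kinases MAP3K8, the kinase TPL2, rose past both (1.29, SE 0.14, adjusted p = 1.9e-04, limma). In A20-KO against WT, ICAM1 and LCN2 thus went the other way from NFKBIA and BCL3. The 7 higher target genes, none of them past the fold threshold, went the same way as NFKBIA and BCL3.

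Of 16 receptors tested, 2 were higher and 2 lower in A20-KO against WT. Only TLR5, the flagellin receptor, passed the fold threshold as well (log2 fold change 1.05, SE 0.24, adjusted p = 0.014, limma), on 18 to 177 reads per library. From A20-KO to A20-RE 2 receptors were higher and 0 lower (limma), and in A20-RE against WT 4 were higher and 2 lower. TLR5 passed both thresholds in A20-RE against WT as well (1.84, SE 0.24, adjusted p = 5.6e-04, limma). Thus 25% of the receptors passed in A20-KO against WT, against 22.3% of all genes. The shares were 12.5% against 8.97% in A20-RE against A20-KO, and 37.5% against 31.1% in A20-RE against WT. Only 4 of the 10 ligands were expressed enough to be tested. Of 24 other adaptors and kinases, 3 were higher and 1 lower in A20-KO against WT (16.7%, against 22.3% of all genes). In A20-RE against WT 1 was higher and 3 lower (16.7%, against 31.1%). The A20-RE to A20-KO comparison had 3 and 3 (25%, against 8.97% of all genes). There CARD9, an adaptor of BCL10, was lower (-1.12, SE 0.24, adjusted p = 0.026, limma). Of 18 negative regulators and A20 partners, 1 was higher and 2 lower in A20-KO against WT (16.7%, against 22.3% of all genes). In A20-RE against WT 6 were higher and 3 lower (50%, against 31.1%). From A20-KO to A20-RE 2 of them were higher (11.1% passed, against 8.97% of all genes). ITCH, a ubiquitin ligase that works with A20, passed both thresholds there (1.09, SE 0.19, adjusted p = 0.011, limma). Of the 6 genes of the ligase that degrades IκB, only CUL1, its scaffold, passed, and it was lower in each comparison (log2 fold change -0.49, -0.46, and -0.95, in the order A20-KO against WT, A20-RE against A20-KO, and A20-RE against WT). This was 16.7% of the list each time, against 22.3%, 8.97%, and 31.1% of all genes in the same order.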

How the data were processed

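RNA was measured in 9 HCT116 libraries, 3 per group, as poly-A RNA sequenced in pairs. The authors aligned the reads with HISAT2 2.0.5 and counted them per gene with featureCounts 1.5.0-p3, per the submitters' notes and the Methods, and deposited FPKM. The strand setting is not given in the sources used here. FPKM times gene length gave whole reads (tolerance 0.02) in every library, 23406222 to 24963691 in all. Gene coordinates are those of the table, which 58724 of 58735 genes share with GENCODE release 29.

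Groups came from the labels. Genes with a mean of at least 0.1 FPKM were tested with limma 3.58.1 (R 4.3.3) on log2(FPKM + 0.1); the fit held all 3 groups and let the variance follow the mean level, and p-values were adjusted over all genes (Benjamini-Hochberg). On this scale fold changes of low genes are understated. The scripts were tested on simulated data. Exact permutation tests were two-sided. Members and gene lists were chosen with earlier results of these data known. By rule, members past the adjusted p are given in every library, those with an absolute log2 fold change of at least 0.5 with full statistics, and other pathway genes where they passed both thresholds in either comparison with the A20-KO-labelled libraries, while CUL1, SDC4, and MAP3K8 were named after their values were seen. The 20 alternatives cover pseudocount, filter, scaling, fit, limma-voom on recovered reads, GC content, and omission of each library.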

Additional observations from a re-analysis of the deposited data

How the results depend on the processing

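No member past the threshold changed sign in any of 20 alternative settings. In A20-KO against WT 7 of 10 members passed in every setting, in A20-RE against WT 14 of 19, and in A20-RE against A20-KO 0 of 4. The count of members past the adjusted p in A20-KO against WT (10) became 22 after the GC correction, and the count past both thresholds (2) became 1 with a pseudocount of 1 and 0 after the GC correction. In A20-RE against A20-KO the 4 members became 1 with no filter, 1 with no variance trend, 10 with only the 2 groups compared, 9 with limma-voom, and 14 after the GC correction. In A20-RE against WT the 4 members past both thresholds became 2 with a pseudocount of 1. The GC correction and scaling to total reads were chosen after seeing the data, and the causes of these shifts were not tested. Median-of-ratios scaling left the member counts as they were and moved the gene counts slightly (4818 against 4816 in A20-KO against WT), with the same factor for every library.

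Over all genes, those past both thresholds in A20-KO against WT (1512) became 472 with a pseudocount of 1 and 931 with a mean of at least 1 FPKM, and those past the adjusted p (4816) became 3148 with only the 2 groups compared. In A20-RE against A20-KO, 1940 genes became 1222 with no filter, 1224 with no variance trend, and 3398 after the GC correction, and 517 past both thresholds became 155 with a pseudocount of 1 and 289 with a mean of at least 1 FPKM. In A20-RE against WT, 2571 past both became 976 and 1555 under the same settings.

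Leaving out 1 library at a time gave 8 to 11 members in A20-KO against WT (1 to 3 past both thresholds, 1 without WT replicate 1), 0 to 12 in A20-RE against A20-KO (0 past both), and 14 to 20 in A20-RE against WT (3 to 5 past both). The genes past the adjusted p ranged from 3117 (without A20-KO replicate 1) to 4999, from 478 (without A20-RE replicate 1) to 3297 (without WT replicate 1), and from 4836 to 7002 in these comparisons, and those past both from 1184 to 1777, from 256 to 621, and from 2258 to 2574.

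Replicate numbers are shared between groups, and the labels do not say whether they pair the samples. The deviations of same-numbered libraries had correlations from -0.027 to 0.121, and those of differently numbered libraries from -0.131 to 0.072. Among the libraries of replicate 3 the correlations were 0.098, 0.045, and 0.121. A shared effect of the replicate number was not tested, and the main fit held the group only. When the replicate block was added, 12, 9, and 20 members passed in A20-KO against WT, A20-RE against A20-KO, and A20-RE against WT, and 5602, 2577, and 7348 genes.

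Depth limits the low members most: REL, TRAF1, and BIRC3 rested on as few as 45, 32, and 83 reads in a library. Reads are not independent molecules, and 3 libraries a group cannot give an exact p under 0.1.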
